A study of Mus with 8 samples.

Results

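Cytotoxic effector genes encode the proteins with which cytotoxic T cells and natural killer (NK) cells recognise target cells, kill them and signal to their surroundings. The group described here holds 10 mouse genes: Gzma, Gzmb, Gzmk, Prf1, Nkg7, Fasl, Xcl1, Ifng, Klrk1 and Ncr1. They were found on the array as the non-control probes whose RefSeq accession belongs to one of these genes, and each of the 10 had 1 probe, among 22911 genes named on the array. A total of 9 were bright enough to be compared, since testing required a probe to be well above background on 4 or more of the 8 arrays. Ncr1 did not reach this, and 16068 genes did.

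The samples were 8 whole subcutaneous tumours grown from Pan02 cells, a mouse pancreatic cancer line, and taken 36 to 40 days after transplantation. The 4 Mutant hosts were Ext1 flox/flox; S100a4-Cre mice of B6 background, in which Cre recombinase driven by S100a4 removes Ext1, an enzyme that extends heparan sulfate chains. The 4 Control hosts were wild-type B6 mice. S100a4 is active in fibroblasts and also in some leukocytes, the transplanted cancer cells carry no Cre and keep Ext1, and both kinds of host have an immune system. Total RNA of each tumour was read on a 1-colour Agilent array, so a level is that of a mixture of cancer, stromal and immune cells.

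In a killer lymphocyte, perforin opens the way into the target cell, and granzymes, which are serine proteases stored in the same granules, enter and cut proteins that start cell death. Fas ligand on the lymphocyte surface is a separate route to death, through the receptor Fas. The same cells release interferon gamma, which raises antigen presentation and chemokine production in its neighbours, and the chemokine Xcl1, which attracts the dendritic cells that present antigen to killer T cells. NKG2D (encoded by Klrk1) and NKp46 (Ncr1) are activating receptors.

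Each level is a log2 signal from which the 75th percentile of its own array was subtracted, differences are Mutant minus Control on that log2 scale, and levels of different probes are not compared with each other. The share of probes well above background ran from 61.5% to 67.2% over the arrays. The number of arrays limits the precision. Ext1 read 2.93, 3.00, 3.41 and 3.24 in Mutant 1 to 4 and 3.04, 3.60, 3.64 and 2.02 in Control 1 to 4, which checks neither the deletion nor the labels, because the cancer cells hold intact Ext1 and the place of the probe relative to the deleted part is not known here.

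The effector genes varied widely from tumour to tumour within each kind of host, and largely in step. Control 1, Control 2 and Mutant 3 held the 3 lowest of the 8 levels in 8 of 9 compared genes, an order found in 5.23% of the 16068 genes tested. Control 2 was lowest in 8 of the 9 genes. Control 3 and Mutant 2 lay above the gene's own median in 8 of 9 genes, Control 4 in 7, and Mutant 1 and Mutant 4 in 6, while Control 1 and Control 2 did so in none. Among the genes above background on all 8 arrays, the span between the lowest and the highest tumour reached from 2.90-fold (Prf1) to 28.8-fold (Nkg7). The SD left within the groups had a median of 1.34 over the 9 genes, against 0.27 over all genes tested, and it lay between the 74.5th percentile (Prf1) and the 98.1st (Nkg7) of all genes. In whole tumours, fewer cells of a type and less RNA per cell cannot be told apart.

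**Figure D1:**
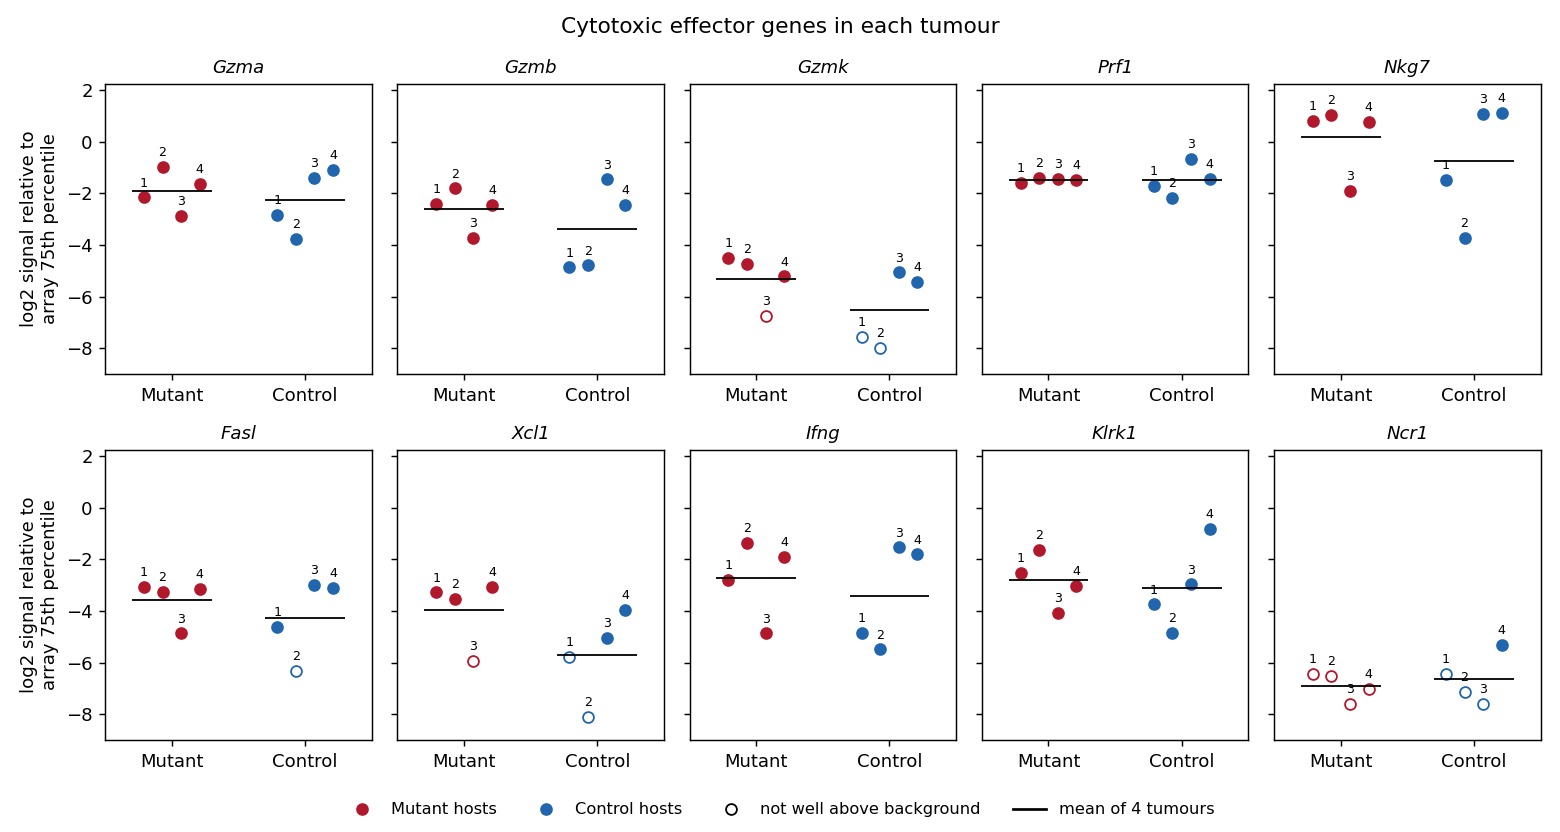
Level of each of the 10 genes in each tumour (log2 signal relative to the array's 75th percentile), with Mutant tumours in red on the left and Control tumours in blue on the right. Digits are replicate numbers, black lines are means of 4 tumours, and open circles are probes not well above background. Control 1, Control 2 and Mutant 3 sit low in most panels, and the groups overlap in every panel.

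Among the granule proteases, Gzma encodes granzyme A, a trypsin-like enzyme. Gzma read -2.16, -0.98, -2.88 and -1.62 in Mutant 1 to 4 and -2.85, -3.76, -1.39 and -1.10 in Control 1 to 4. Mutant 3 lay at the level of Control 1, and the other Mutant tumours spanned the levels of Control 3 and Control 4. The difference was 0.37 with a standard error of 0.66. Gzmb, granzyme B, is the protease that activates caspases in the target. Its level was -2.39, -1.81, -3.73 and -2.45 in Mutant 1 to 4 and -4.87, -4.79, -1.46 and -2.46 in Control 1 to 4. The Control tumours fell far apart, with Control 3 the highest of all 8 and Control 1 the lowest, and every Mutant tumour lay between these. The difference in Gzmb was 0.80 with a standard error of 0.83. Gzmk, granzyme K, a trypsin-like relative of granzyme A, was partly near background. It read -4.51, -4.72, -6.76 and -5.22 in Mutant 1 to 4 and -7.55, -7.98, -5.06 and -5.44 in Control 1 to 4, and was not well above background in Mutant 3, Control 1 and Control 2. Mutant 1, 2 and 4 and Control 3 and 4, the tumours with a measured level, lay close together, Mutant 1 and Mutant 2 being the highest. The Gzmk difference was 1.21 with a standard error of 0.79. It includes 3 tumours in which the probe was not well above background, and it was 0.071 with normexp background correction, 0.72 without Control 2 and 2.09 with array weights.

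Prf1, which encodes perforin, varied least of the 9 genes. It read -1.59, -1.40, -1.44 and -1.46 in Mutant 1 to 4 and -1.71, -2.19, -0.66 and -1.44 in Control 1 to 4. The Mutant tumours covered a 1.14-fold range and all lay inside the 2.90-fold range of the Control tumours. Mutant 3, low in the other compared genes, was not among the lowest 3 tumours here. By rank Prf1 followed the mean profile of the 9 genes, to which it contributes (Spearman 0.86 over 8 tumours). Its Pearson correlation with that profile was 0.69, and 0.18 without Control 1 and Control 2. Whether this probe, nearly level over the Mutant tumours, reports its gene could not be checked here. The Prf1 difference was 0.03 with a standard error of 0.29. Nkg7 encodes a membrane protein of cytotoxic granules that takes part in their release. Nkg7 levels were 0.81, 1.05, -1.89 and 0.77 in Mutant 1 to 4 and -1.48, -3.73, 1.06 and 1.12 in Control 1 to 4. A total of 5 tumours, 3 Mutant and 2 Control, lay close together, and the other 3 were far below them. The Control tumours alone spanned 28.8-fold and the Mutant tumours 7.67-fold. The Nkg7 difference was 0.94 with a standard error of 1.19.

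Of the genes for secreted and surface ligands, Fasl encodes Fas ligand. Its level was -3.08, -3.25, -4.87 and -3.14 in Mutant 1 to 4 and -4.61, -6.32, -2.98 and -3.12 in Control 1 to 4, the value of Control 2 being not well above background. The same 5 tumours that were close in Nkg7 were close in Fasl. The difference was 0.67 with a standard error of 0.79. Xcl1 was partly near background too. It read -3.28, -3.53, -5.92 and -3.07 in Mutant 1 to 4 and -5.77, -8.12, -5.03 and -3.96 in Control 1 to 4, with Mutant 3, Control 1 and Control 2 not well above background. Mutant 1, 2 and 4 lay above all Control tumours, and the groups overlapped through Mutant 3. The Xcl1 difference was 1.77 with a standard error of 0.97, and it was 0.48 with normexp background correction, 0.97 without Control 2 and 2.63 with array weights.

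Ifng, which encodes interferon gamma, read -2.80, -1.36, -4.87 and -1.92 in Mutant 1 to 4 and -4.84, -5.49, -1.54 and -1.81 in Control 1 to 4. All 8 arrays measured it above background, and its lowest and highest tumours were 17.4-fold apart. Mutant 3 and Control 1 were nearly equal at the low end, and Mutant 2, Control 3, Control 4 and Mutant 4 formed the high end. The Ifng difference was 0.68 with a standard error of 1.12.

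For the receptors, Klrk1 read -2.53, -1.64, -4.06 and -3.04 in Mutant 1 to 4 and -3.75, -4.86, -2.97 and -0.81 in Control 1 to 4. Control 4 stood highest, and Control 3, high in the granzymes and Ifng, was close to Mutant 4 in the middle of the order. The Klrk1 difference was 0.28 with a standard error of 0.88. Ncr1, the receptor most specific to NK cells among the 10 genes, was well above background on 0 Mutant arrays and on 1 Control array. Its signal was -6.44, -6.51, -7.62 and -7.01 in Mutant 1 to 4 and -6.45, -7.13, -7.61 and -5.31 in Control 1 to 4, only the value of Control 4 being a measured level. No fold is given for Ncr1.

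None of the 9 compared genes differed between Mutant and Control tumours beyond the spread between tumours. By limma with Benjamini-Hochberg adjustment over all 16068 genes, 0 of 9 passed at an adjusted p under 0.05, as did 0% of all genes, and the adjusted p was 1.00 for each of the 9. At an unadjusted p under 0.05 there were also 0 of 9, against 2.91% of all genes (467), or 1.87% counting the genes higher in Mutant tumours alone, and the smallest unadjusted value was 0.107, for Xcl1. The exact permutation test, two-sided and with 70 possible arrangements, gave p between 0.171 (Xcl1) and 0.943 (Prf1), where the smallest possible value is 0.0286. The groups overlapped in each of the 9 genes, and did not overlap in 1.42% of all genes. All 9 differences were above 0, as were 52.4% of all genes, with a median of 0.68 against 0.01 over all genes. The 9 genes were measured in the same 8 tumours and moved largely together, so these are not 9 separate observations. A difference of at least 2-fold higher in Mutant tumours was read in 2 of 9, Gzmk and Xcl1, against 2.23% of all genes. Both include 3 tumours not well above background, and neither reached 2-fold without Control 2 (0.72 and 0.97) or with normexp (0.071 and 0.48). In the other direction, 0 of 9 were at least 2-fold lower, against 0.554%. The 95% intervals reached from -1.92 to 3.28 for Ifng and from -1.81 to 3.70 for Nkg7. They reached from -1.13 to 2.73 for Gzmb and from -0.66 to 0.71 for Prf1. For Ifng, Nkg7, Gzmb, Gzma, Fasl and Klrk1 these data leave room for differences of more than 2-fold in either direction. For Gzmk and Xcl1 they do so for higher levels in Mutant tumours.

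The size of the median difference hung on single tumours. It was -0.015 without Control 2, where only 3 of 9 differences (Gzmb, Gzmk and Xcl1) were above 0, and 0.31 without Control 1. Without Control 3 it was 1.31, without Control 4 it was 1.11, and without Mutant 3 it was 1.18. The 3 other tumours left it between 0.52 and 0.70. Across these 8 settings the difference ranged from -0.0094 to 1.39 for Ifng, from -0.13 to 0.76 for Gzma, from 0.31 to 1.45 for Gzmb and from 0.97 to 2.43 for Xcl1.

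**Figure D2:**
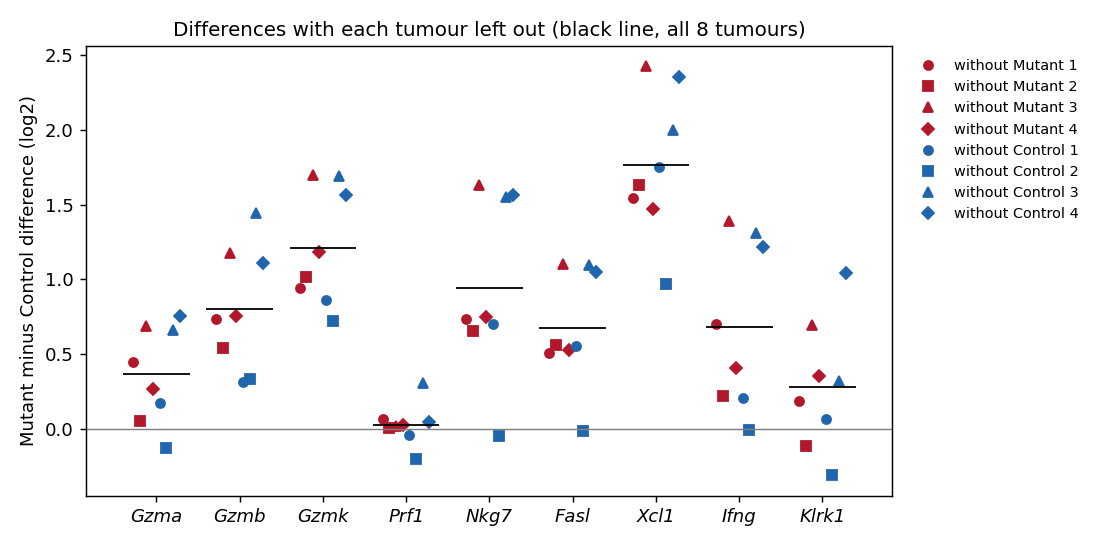
Mutant minus Control difference (log2) of the 9 compared genes with each tumour left out in turn, red for a Mutant and blue for a Control tumour, and a black line for all 8 tumours. Blue squares, without Control 2, lie at or below 0 for 6 of the 9 genes.

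All arrays lay on 1 slide, and each of its 2 rows of arrays held 2 Mutant and 2 Control tumours. In row 1 (Mutant 1 and 2, Control 1 and 2) all 9 differences were above 0, with a median of 2.73. In row 2 (Mutant 3 and 4, Control 3 and 4) only Xcl1 was above 0, by 0.00, and the lowest was Ifng. Ifng differed by 3.08 in row 1 and by -1.72 in row 2, Gzmb by 2.73 and -1.13, and Nkg7 by 3.53 and -1.65. The change of the difference between rows, fitted after these values were seen, had limma adjusted p between 0.348 and 0.558 for the 9 genes, and 0 of 16068 genes passed. With the slide row as a block the median difference was 0.68. With 2 tumours of each kind in a row, slide position and the tumours that happened to lie there cannot be told apart.

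**Figure D3:**
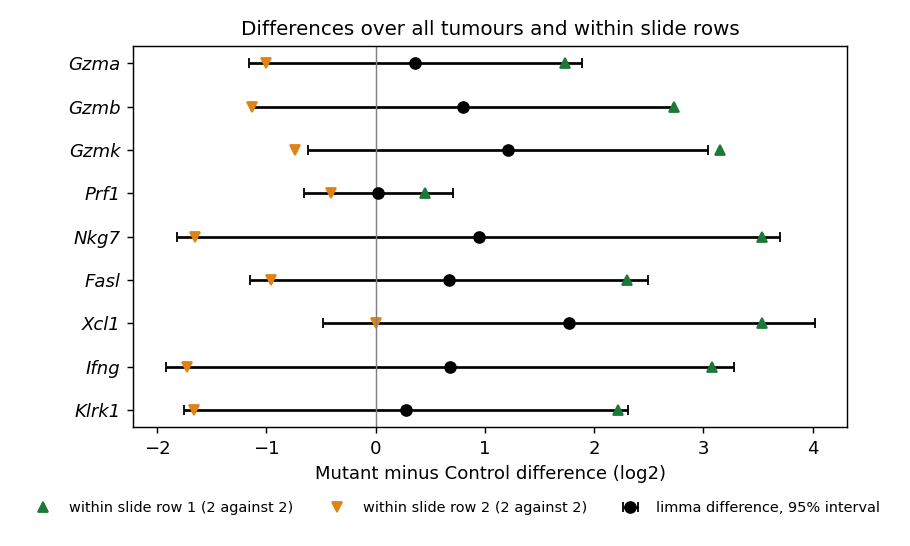
Mutant minus Control difference (log2) with its 95% interval from limma for the 9 compared genes (black), and the same difference within slide row 1 (green, upward triangles) and slide row 2 (orange, downward triangles), each from 2 tumours of each kind. All intervals span 0, and the 2 rows lie on opposite sides of 0 except for Xcl1, which lies at 0.00 in row 2.

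Most T cell markers followed the effector genes across tumours, and 11 of 13 had Control 1, Control 2 and Mutant 3 as their lowest 3. The exceptions were Cd4 and Cd247, which were nearly flat, and Cd3e and Cd28 kept the order over a narrower span than most. After subtraction of its own mean from each gene, the average level of the 9 effector genes was 0.67, 1.10, -0.99 and 0.71 in Mutant 1 to 4 and -1.10, -2.19, 0.84 and 0.95 in Control 1 to 4. That of 13 T cell markers was 0.45, 0.60, -0.92 and 0.47 in Mutant 1 to 4 and -0.61, -1.65, 0.37 and 1.29 in Control 1 to 4. The same 3 tumours were lowest in both, and Control 4 was highest in the T cell list. Cd3d, a subunit of the T cell receptor complex, read 0.56, 0.61, -1.88 and 0.45 in Mutant 1 to 4 and -1.01, -2.79, 0.44 and 1.29 in Control 1 to 4. Of the T cell markers 12 of 13 were above 0 in the comparison of hosts, with a median of 0.29, and 0 passed. In a model that also held the T cell level, added once the values were known, 7 of 9 effector differences were above 0. The median was 0.32, and 0 passed. The single genes parted, with Prf1 (-0.050) and Klrk1 (-0.11) below 0. Xcl1 differed by 1.33 and Gzmk by 0.88, with standard errors of 0.29 and 0.37, and both probes were partly near background.

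Defining NK cell markers were dim. Of 8 such genes 5 were compared, and Ncr1, Klrb1c and Klri2 were well above background on only 1, 2 and 2 of the 8 arrays. Klrd1, the CD94 subunit of receptors on NK cells and some T cells, was above background on all arrays, at -1.53, -0.59, -3.40 and -1.10 in Mutant 1 to 4 and -2.71, -4.53, -1.18 and -0.35 in Control 1 to 4, so that it shared the low tumours of the effector genes. The Eomes probe, for a transcription factor of NK and memory T cells, was nearly flat, between -2.70 and -2.03 in Mutant tumours and between -2.53 and -2.04 in Control tumours, and whether it reports its gene could not be checked here. The NK list had a median difference of 0.54, with 4 of 5 above 0 and 0 passing. The cell of origin of the effector transcripts cannot be told apart in these bulk tumours.

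General leukocyte markers varied far less, though 6 of 7 also had Control 1, Control 2 and Mutant 3 as their lowest 3. Their mean level was 0.30, 0.15, -0.49 and 0.15 in Mutant 1 to 4 and -0.26, -0.29, 0.03 and 0.40 in Control 1 to 4, a span under 1 where the effector level spanned more than 3 log2 units. With that level as a covariate, also chosen after the values were seen, the median effector difference was 0.50 and all 9 were above 0. Skeletal muscle genes, which encode contractile and related proteins, had the largest median difference of the marker lists examined. Their level was 1.88, 2.63, -0.79 and 1.38 in Mutant 1 to 4 and -0.45, 0.26, -1.67 and -3.23 in Control 1 to 4. Of these genes 14 of 15 were above 0, with a median of 2.86 and 0 passing. A limma unadjusted p under 0.05 was found in 10 of the 15, against 2.91% of all genes. The 15 genes share the same tumours and are not separate observations. Control 3 and Control 4, lowest in muscle, were high in the effector genes, and with the muscle level as a covariate, again added later, the median effector difference was 1.19. The part of T cell, leukocyte and muscle content in the effector differences was not tested beyond these covariates.

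**Figure D4:**
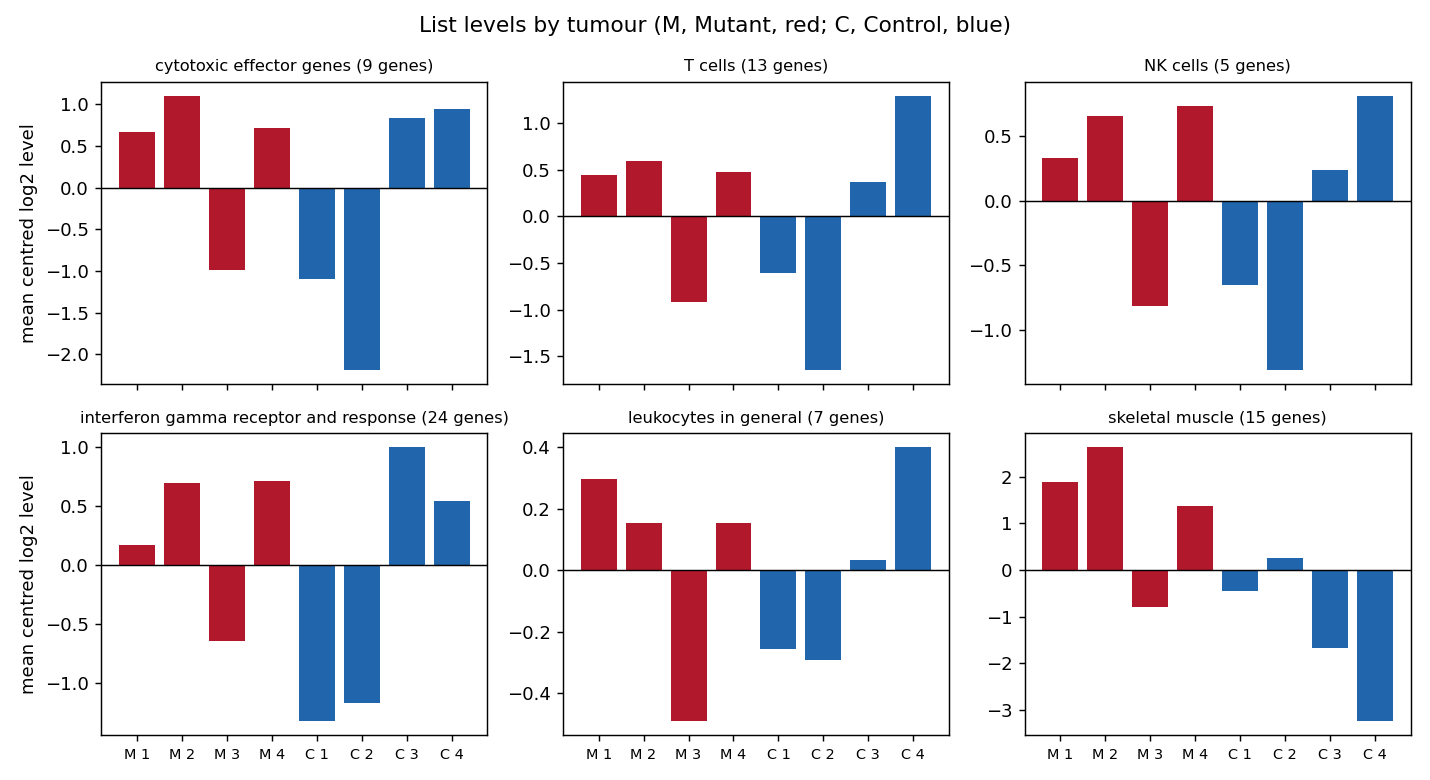
Mean level of each list in each tumour (log2, each gene centred on its mean over the 8 tumours), Mutant tumours in red on the left and Control tumours in blue on the right, with a scale of its own in each panel. The effector, T cell, NK, interferon gamma and leukocyte lists are low in Mutant 3, Control 1 and Control 2. The leukocyte list spans less, and the muscle list has another order.

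Of the remaining granzymes, Gzmc, Gzmd, Gzme, Gzmf and Gzmg differed widely between tumours, and Gzmm did not. Mice carry a run of granzyme genes close to Gzmb that humans lack, and their sequences are alike enough that probes may pick up more than 1 of them. Gzmf read -1.98, -1.96, -5.16 and -3.05 in Mutant 1 to 4 and -7.89, -8.12, 0.19 and -8.05 in Control 1 to 4, so that it was above background in all Mutant tumours and, among the Control tumours, in Control 3 alone. Control 4, high in Gzma and Nkg7, was not well above background in Gzmf. Gzmc read 0.99, 0.41, -2.36 and 0.61 in Mutant 1 to 4 and -3.59, -3.77, 0.71 and -0.77 in Control 1 to 4. Gzmg was above background on 3 Mutant arrays and 1 Control array, the same Control 3. The differences were 2.93 for Gzmf, 1.77 for Gzmc and 2.20 for Gzmg, with standard errors of 1.92, 1.18 and 1.28 (limma adjusted p = 1.00 for each). Gzmf and Gzmg were bright enough for the test mainly through the Mutant arrays, and their Control levels, other than in Control 3, are background signals, so the size of these differences is not a measured ratio.

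Gzmd and Gzme, named after their values were seen, had differences of 0.83 and 0.70 with standard errors of 1.38 and 1.20, Gzmd being not well above background in Mutant 3 and Control 1. Gzmm, the granzyme M gene, lies elsewhere in the genome, and its difference was -0.21. Gzmn was well above background on 0 arrays. Of the 10 compared genes among other granzymes and granule contents 8 were above 0, with a median of 0.73, and 0 passed. Srgn, the proteoglycan serglycin that packs granule proteases in many leukocytes, differed by -0.22.

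**Figure D5:**
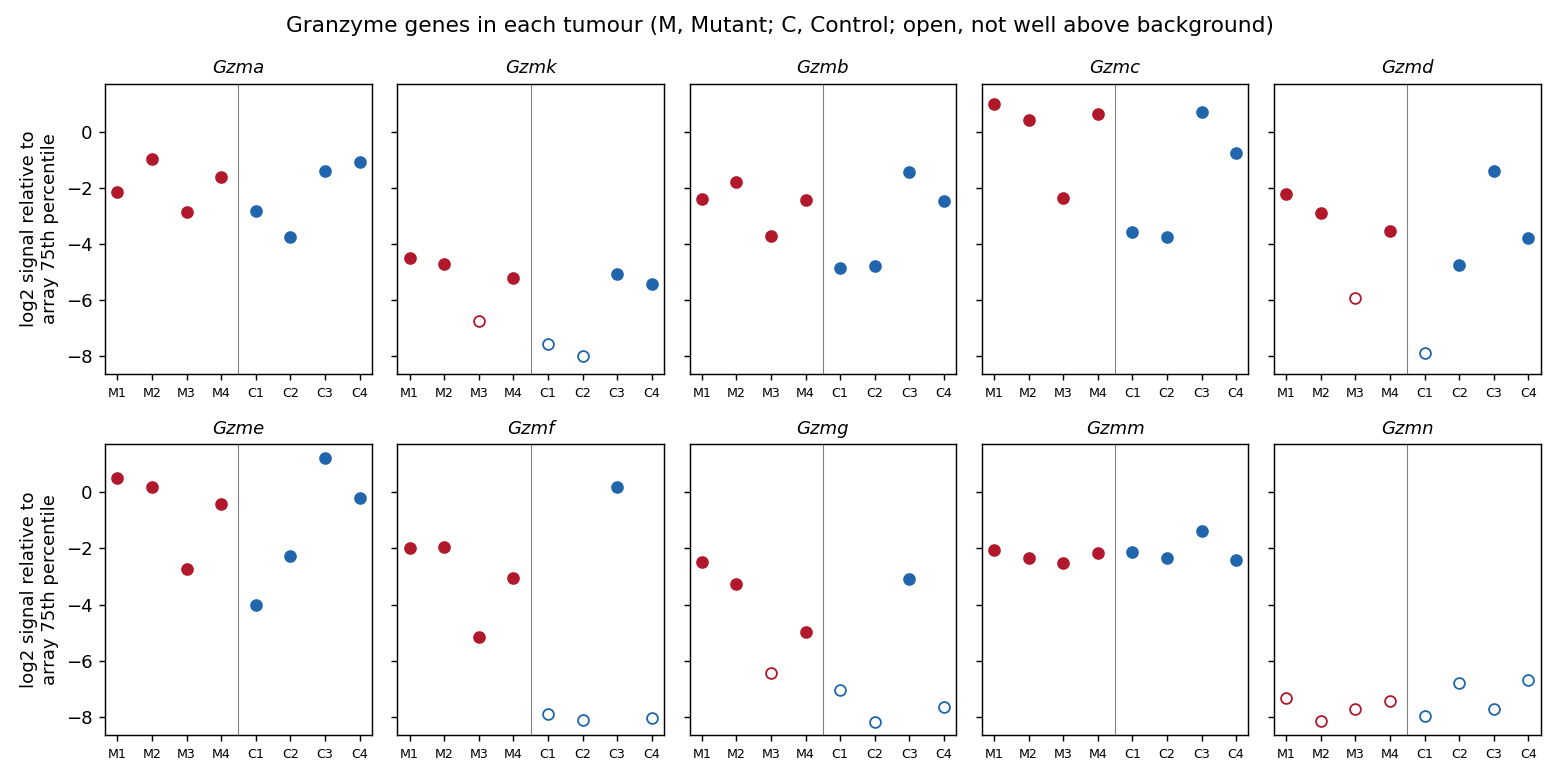
Level of each granzyme gene in each tumour (log2 signal relative to the array's 75th percentile), Mutant tumours (M, red) left of Control tumours (C, blue), open circles where the probe was not well above background. Gzmf is above background in all 4 Mutant tumours and in Control 3 only, and Gzmn in none.

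The mean level of the granule release machinery genes varied little between tumours, though single genes varied more. Stx11 spanned 1.35, with an SD within the groups at the 74.4th percentile of all genes. Over the 10 listed genes the level stayed between -0.12 and 0.07 in Mutant tumours and between -0.14 and 0.15 in Control tumours. Rab27a and Coro1a, 2 of the 10, had the same 3 lowest tumours as the effector genes, over spans of 0.92 and 0.87. Coro1a also belongs to the general leukocyte markers used here. Of these genes 6 were above 0 and 4 below, with a median of 0.03, and 0 passed. The regulator of lysosome size Lyst differed by -0.23, the syntaxin Stx11 by -0.49, the vesicle SNARE Vamp7 by 0.14 and the adaptor subunit Ap3b1 by -0.15. These genes are expressed in many cell types.

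Death receptors, other death ligands and their targets also showed no shift as a list, with 7 of 13 above 0, a median of 0.03 and 0 passing. Lta, which encodes lymphotoxin alpha, was the member with the smallest unadjusted p, 0.0338 (limma adjusted p = 1.00). Lta read -5.29, -5.36, -5.44 and -5.03 in Mutant 1 to 4 and -6.25, -6.10, -6.03 and -5.18 in Control 1 to 4, and was above background on 4 Mutant arrays and 1 Control array, so that it entered the test through the Mutant arrays and its p sets them against background signals in 3 Control tumours. Tnfsf10, the death ligand TRAIL, differed by 0.80 and the protease inhibitor Serpinb6a by -0.39.

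Of the NK receptors and adaptors 18 of 24 listed genes were compared, 17 were above 0, the median was 0.20 and 0 passed. Cd96, a receptor of T and NK cells, differed by 1.08 with a standard error of 1.09, from 3 Mutant and 2 Control arrays above background. Klra9 differed by 0.62, the integrin subunit Itga2 by 0.53 and Klra1 by -0.36, and Klra genes are similar enough in sequence to share signal. Tyrobp and Hcst encode the adaptors that couple activating receptors, Hcst being the partner of Klrk1, and were named after their values were seen. Hcst stayed between 1.19 and 1.48 in Mutant tumours and between 0.75 and 2.15 in Control tumours. Tyrobp, which myeloid cells also express, stayed between 4.60 and 5.39 in Mutant tumours and between 4.76 and 5.08 in Control tumours.

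Of the listed ligands of the Klrk1 receptor 4 were compared, the 5 other listed genes being not matched to a probe here. Raet1e differed by -0.02 with a standard error of 0.22, Ulbp1 by 0.04 with 0.25, H60b by 0.18 with 0.28 and H60c by 0.29 with 0.22. The median was 0.11 and 0 passed.

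Effector transcription factors were split, with 5 of 11 above 0, a median of -0.04 and 0 passing. Nfatc1 differed by -0.22, Id2 by -0.17, Nfatc2 by -0.32 and Runx3 by 0.10. Tbx21, which encodes T-bet, an activator of Ifng, was named after its values were seen. It read -2.65, -2.85, -4.82 and -2.81 in Mutant 1 to 4 and -4.18, -5.63, -3.07 and -2.23 in Control 1 to 4, with the same 3 tumours lowest as in the effector genes, and its difference was 0.50 with a standard error of 0.79.

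Among 14 compared cytokines and receptors that induce killing 8 were above 0, with a median of 0.09, and 0 passed. Il18rap, a subunit of the interleukin 18 receptor, had the smallest unadjusted p of the list, 0.0170 (limma adjusted p = 1.00). It read -2.82, -2.85, -3.11 and -3.12 in Mutant 1 to 4 and -3.40, -3.38, -3.14 and -3.52 in Control 1 to 4. The groups did not overlap, Mutant 4 lying just above Control 3. The difference was 0.39 with a standard error of 0.13. Il18 differed by 0.61, Il15, a growth factor of NK and memory T cells, by 0.65 and Il27 by -0.15.

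Most genes of the interferon gamma receptor and response list had the tumour order of Ifng, and 21 of 24 had Control 1, Control 2 and Mutant 3 as their lowest 3. The exceptions were the receptor chains Ifngr1 and Ifngr2 and the kinase Jak2. Of 24 compared genes 22 were above 0, with a median difference of 0.57, and 0 passed. The list level was 0.17, 0.69, -0.64 and 0.71 in Mutant 1 to 4 and -1.32, -1.17, 1.00 and 0.54 in Control 1 to 4. Cxcl9, a chemokine for activated T cells, was named after its values were seen, and read 2.83, 3.85, 0.81 and 4.01 in Mutant 1 to 4 and 0.16, -0.27, 4.32 and 2.61 in Control 1 to 4. As in Ifng, the lowest were Control 1, Control 2 and Mutant 3. By the rule of smallest p, Jak2 differed by -0.37, the MHC class I activator Nlrc5 by 0.53, the receptor chain Ifngr1 by 0.25 and the guanylate-binding protein Gbp7 by 0.67, each with a limma adjusted p = 1.00.

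Xcr1, the receptor of Xcl1, was near background on all 8 arrays. Of 7 other genes of cross-presenting dendritic cells 4 were above 0, with a median of 0.32, and 0 passed. Clec9a, a receptor for dead cells on these dendritic cells, read -1.18, -3.00, -5.80 and -2.09 in Mutant 1 to 4 and -3.78, -6.26, -4.00 and -2.50 in Control 1 to 4, the values of Mutant 3 and Control 2 being not well above background. Itgae, an integrin subunit also found on resident T cells, differed by 0.86, Snx22 by 0.32 and Cadm1 by -0.46.

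The genes most like the mean effector profile over the 8 tumours, by Pearson correlation and given as a description, were AW112010 (0.99), Gm8369 (0.99), Aff2 (0.99), Il2rb (0.99), Themis (0.98), Cd8a (0.98), Ms4a4b (0.98), Pdcd1 (0.98), Klrd1 (0.97) and Prm1 (0.97). Their rank correlations lay between 0.79 and 0.98. These points share 8 arrays that differ mainly in 3 low tumours. Without the 2 tumours farthest from the median, Control 1 and Control 2, the 10 values lay between 0.93 and 0.98. This does not test the likeness beyond the low tumours. Mutant 3 was kept, at a mean effector level of -0.99 against 0.67 to 1.10 in the others kept. The genes were also picked for this correlation. Cd8a, a coreceptor of cytotoxic T cells, read -2.96, -2.67, -4.70 and -2.33 in Mutant 1 to 4 and -5.18, -6.84, -2.23 and -2.78 in Control 1 to 4. Il2rb is the receptor chain for interleukins 2 and 15, Themis acts in T cell receptor signalling, and Pdcd1 encodes the inhibitory receptor PD-1. Themis was well above background on 4 arrays, and Gm8369 and Prm1 on 5. Of the effector genes themselves Nkg7 came closest to the mean profile, to which it contributes (0.99), and Prf1 was the least like it (0.69).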

How the data were processed

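RNA of 8 tumours was read on 1-colour (Cy3) Agilent arrays. Spot intensity was extracted with Agilent Feature Extraction, version 10.7.3.1 per the file headers and version 9.1 per the submitters' processing notes. The deposited processed signal is background-subtracted and detrended within the array, linear and not scaled across arrays, per the file headers, and the deposited flags carry no unit (other). Outlier spots (66 to 117 per array) and control spots were left out, spots of a probe averaged, and log2 values centred on the array's 75th percentile. The authors' deposited value table equals these intensities within 0.01% for 99.5% of probes. RefSeq accessions, matched without version to a GRCm38.p6 table, named 32994 of 56605 probes. Coordinates are not printed because the design was drawn on a different build, and sequences are not used here.

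Each gene was represented by its brightest probe among those that 4 or more of the 8 arrays measured well above background, and Mutant was set against Control with limma (3.58.1, R 4.3.3; Python 3.11.15 and pandas 2.3.3 for tables). The fit was also run on simulated data with noise drawn separately for each gene. Genes here move together, so that run does not check the fit under such sharing. The tumours come from 4 mice per group by the design text and were treated as independent. Named genes are the 10 effector genes, in each pathway list up to 4 of smallest p, and the 10 most like the mean profile, of which 1 gene is not reported here. Members and lists were chosen with earlier results of these data known. Alternatives covered background correction (normexp, run on median spot and background signals), normalization, filters, probe choice, the value table, variance trend, array weights, replicate and slide row blocks and leaving out each tumour. The 3 covariates and the row interaction were added after the values were seen.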

Additional observations from a re-analysis of the deposited data

Results flagged for a closer look

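In 144 groups of 4 tumours, from 72 genes, 15 had a single tumour far from the other 3, where chance flags about 1 in 20. Of the 15, 10 were Mutant 3, and 3 of the 15 were effector genes. That chance rate holds for separate groups, whereas these genes share the same tumours and many move together. Gm8369, Themis and Ms4a4b were moreover named for likeness to a profile that is low in Mutant 3. The flags are therefore a description and not separate observations. Mutant 3 read -1.89 in Nkg7 against 0.77 to 1.05 in the other Mutant tumours, -4.87 in Fasl against -3.25 to -3.08, and -5.92 in Xcl1 against -3.53 to -3.07. In T cell genes it read -1.88 in Cd3d, -3.68 in Cd3g, -7.72 in Themis and -1.72 in Ms4a4b. It read -4.82 in Tbx21, -5.83 in Gm8369 and -0.30 in Il15, again below the other Mutant tumours. The Xcl1, Themis and Gm8369 values of Mutant 3 were not well above background. Without Mutant 3 the median difference of the effector genes was 1.18.

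Gzmf stood alone in Control 3 at 0.19, against -8.12 to -7.89 in the other Control tumours, none of which was well above background. Control 4 was high in Hcst at 2.15 and low in Nfatc1 at 1.76. Control 2 was low in Serpinb6a at 5.17, and Mutant 1 was low in Klra1 at 1.26.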

How the results depend on the processing

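By limma 0 genes passed under any of 24 alternatives, and 11 of 213 recomputed effector differences changed sign. These were Prf1, at -0.030 with normexp background correction and -0.050 with the T cell covariate, Klrk1, at -0.11 with the T cell covariate, and tumours left out, where the lowest and highest values were -0.20 and 0.31 for Prf1, -0.31 and 1.04 for Klrk1, -0.13 and 0.76 for Gzma, -0.048 and 1.63 for Nkg7, -0.015 and 1.10 for Fasl and -0.0094 and 1.39 for Ifng. The median was 1.71 with array weights, 0.22 with normexp, and -0.015 to 1.31 with a tumour left out. Dim probes limit Gzmk, Xcl1 and Fasl, whose differences with normexp were 0.071, 0.48 and 0.19, and which were not tested where all 8 arrays had to be above background. Genes at an unadjusted p under 0.05 numbered 467 and ranged from 149 to 1280 over the alternatives. With array weights, which gave the 1280, limma unadjusted p was 0.032 for Gzmb, 0.012 for Gzmk and 0.011 for Xcl1. With the leukocyte covariate it was 0.046 for Gzmk and 0.016 for Xcl1. For Xcl1 it was also 0.0024 with the T cell covariate, 0.043 without Control 4 and 0.032 without Mutant 3. The adjusted p of these genes was 0.62 or more in each of these settings. Same-numbered tumours were not paired by the labels, their deviations correlated between -0.31 and 0.08, and no Mutant tumour correlated best with its own number. With the replicate block the median was 0.68, 0 genes passed and 371 had an unadjusted p under 0.05.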

Other observations

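Set against the mean of the Cd3d, Cd3e and Cd3g levels of the same tumour, a measure chosen after the values were seen, the mean effector level was 0.09, 0.50, 0.19 and 0.19 in Mutant 1 to 4 and -0.57, -0.23, 0.15 and -0.32 in Control 1 to 4. With Cd3d and Cd3g alone, without Cd3e, which varied less, it was -0.19, 0.27, 0.68 and -0.0064 in Mutant 1 to 4. In Control 1 to 4 it was -0.38, 0.36, -0.14 and -0.59. The groups overlapped in both, and the order of the tumours depended on which Cd3 probes were used. The measure was not tested, since the genes were chosen with results known.

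Of the T cell genes, Cd4, Cd3e, Cd247 and Cd28 spanned less over the tumours than Prf1 did. Cd4 read between 1.02 and 1.21 in Mutant tumours and between 0.66 and 1.45 in Control tumours. Cd3e read between 0.44 and 0.77 in Mutant tumours and between -0.14 and 1.37 in Control tumours. Cd3d and Cd3g, which belong to the same receptor complex as Cd3e, spanned more than 4 log2 units each. Whether the Cd4, Cd3e and Prf1 probes report their genes could not be checked here.

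Other marker lists held no gene past the test. Median differences were 0.04 over 4 B cell genes, 0.13 over 12 macrophage and monocyte genes, 0.73 over 8 neutrophil genes, 0.19 over 7 mast cell genes, 0.05 over 10 fibroblast genes, 0.18 over 7 endothelial genes, -0.57 over 4 epithelial genes and 0.08 over 7 general leukocyte genes.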
